A study of Mus musculus with 20 samples.

Results

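The leukocyte integrins and adhesion molecules were 9 genes, taken by name from the mouse array: the integrin subunits Itgb2, Itgal, Itgam, Itgax, Itga4 and Itgb7, the endothelial ligands Icam1 and Vcam1, and Selp, which encodes P-selectin. They were 9 of 34797 gene names on the array and were read by 15 of its 55681 features, a feature being 1 oligonucleotide of 60 bases. RNA came from the diaphragms of 20 female C57Bl/6 mice, 12 weeks after 1 injection into the pleural cavity at 8 weeks of age, with 4 mice in each of 5 groups. The control mice received the vehicle alone, 100 µL of saline with 0.5% bovine serum albumin, which the other groups received too. SFA mice were given 25 µg of short-fibre amosite asbestos, LFA mice 25 µg of long-fibre amosite, NTS mice 5 µg of short carbon nanotubes and NTL mice 5 µg of long carbon nanotubes. Mass dose therefore differed between asbestos and nanotubes, and a piece of each diaphragm, with its muscle, vessels and pleural surface, went into 1 RNA sample.

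Integrins are pairs of 1 alpha and 1 beta subunit that leukocytes use to hold on to other cells and to matrix. The beta2 subunit, encoded by Itgb2, pairs with the alpha subunits encoded by Itgal (LFA-1), Itgam (Mac-1) and Itgax (CD11c), while the alpha4 subunit, encoded by Itga4, pairs with the beta7 subunit (Itgb7) or with beta1. During recruitment from blood, P-selectin on activated endothelium and platelets supports leukocyte rolling, after which Icam1 binds beta2 integrins and Vcam1 binds alpha4 integrins. Vcam1 is also made by mesothelial cells and by some macrophages, and Itgax and Itgam by macrophages and dendritic cells. In tissue RNA, fewer cells of a type and less RNA per cell cannot be told apart.

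The features were short, and 1 of those for Itgam held a long run of CA units. The 3 oligonucleotides for Itgam are therefore shown first, with the coding-region oligonucleotides of Vcam1, Icam1 and Itgal. All are as listed in the scanner files and are named by the base of the transcript at which they start. Of the feature at base 4431, only the first 30 of its 60 bases are printed, with its longest run of CA units in capitals.

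Itgam, base 4431, first 30 bases: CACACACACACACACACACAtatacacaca
Itgam, base 3410: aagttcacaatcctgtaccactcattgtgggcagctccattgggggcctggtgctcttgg
Itgam, base 270: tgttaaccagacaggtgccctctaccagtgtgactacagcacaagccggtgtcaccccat
Itgal, base 3637: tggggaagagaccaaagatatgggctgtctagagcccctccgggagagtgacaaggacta
Icam1, base 1588: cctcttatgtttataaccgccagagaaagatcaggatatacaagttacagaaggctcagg
Vcam1, base 842: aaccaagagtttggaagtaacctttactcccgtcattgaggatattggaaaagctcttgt

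In the NCBI37 mouse build that the files use, the Itgam features began at positions 135261755 (base 4431), 135260275 (base 3410) and 135212140 (base 270) of chromosome 7. The Itgax feature began at position 135294052 of the same chromosome, and Itgam and Itgax were neighbours in the order of protein-coding genes, with Itgad next to Itgax. The brightest Itgal feature began at position 134477160 of chromosome 7, the Itgb2 feature at 77027978 of chromosome 10, and the brightest Itga4 feature at 79173193 of chromosome 2. Itgb7 lay on chromosome 15 (start 102046450), Icam1 on chromosome 9 (start 20832290), Vcam1 on chromosome 3 (start 115813216) and Selp on chromosome 1 (start 166079660). Where a gene had several features, the one with the highest mean signal over the 20 arrays stood for it. Of the 15 features, the transcript accession of 14 was in the RefSeq table of GRCm38.p6.

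Levels are given as log2 of the processed signal minus the array's 75th percentile, so that 0 is the 75th percentile of that array. Levels of different genes come from different oligonucleotides and are not set against each other. All 9 genes passed the filter on dim features (well above background on at least 4 of 20 arrays), as did 36920 features in all. The 75th percentile of the signal ran from 294 to 996 over the 20 arrays. Its median was 575 in control, 553 in SFA, 716 in LFA, 455 in NTS and 816 in NTL mice. No spot was saturated, and between 53.0% and 68.1% of spots were well above background. The labels do not say whether the 4 mice of a group were processed together, and the arrays lay on 3 slides. Calls needed a change of 2-fold or more (1 on the log2 scale) together with a limma adjusted p under 0.05 over all features tested.

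Long fibres of both kinds went with higher RNA of the beta2 chain, of Vcam1 and of P-selectin, and short fibres did not move any of the 9 genes past the threshold. In LFA against control mice, 3 of 9 genes were called higher (Itgb2, Vcam1 and Selp), against 2.22% of all features tested. In NTL against control mice, 6 of 9 were called higher (those 3 with Itgax, Itgal and Itga4), against 3.63% of all features. None was called lower in either comparison, and both share the same 4 control mice. The median change of the 9 genes was 1.10 in LFA and 1.37 in NTL mice, beside -0.28 and -0.25 over all features tested. Over the 5 groups, 6 of 9 genes passed an F test at the same thresholds, against 5.89% of all features. Itgb7, Icam1 and Itgam read by its brightest feature (F test adjusted p = 0.709) did not. In the same F test the Itgam feature at base 3410 passed (largest log2 change 1.35, adjusted p = 0.0359). The Itgam feature at base 270 did not (F test adjusted p = 0.464), so the result for Itgam turned on the feature.

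**Figure D1:**
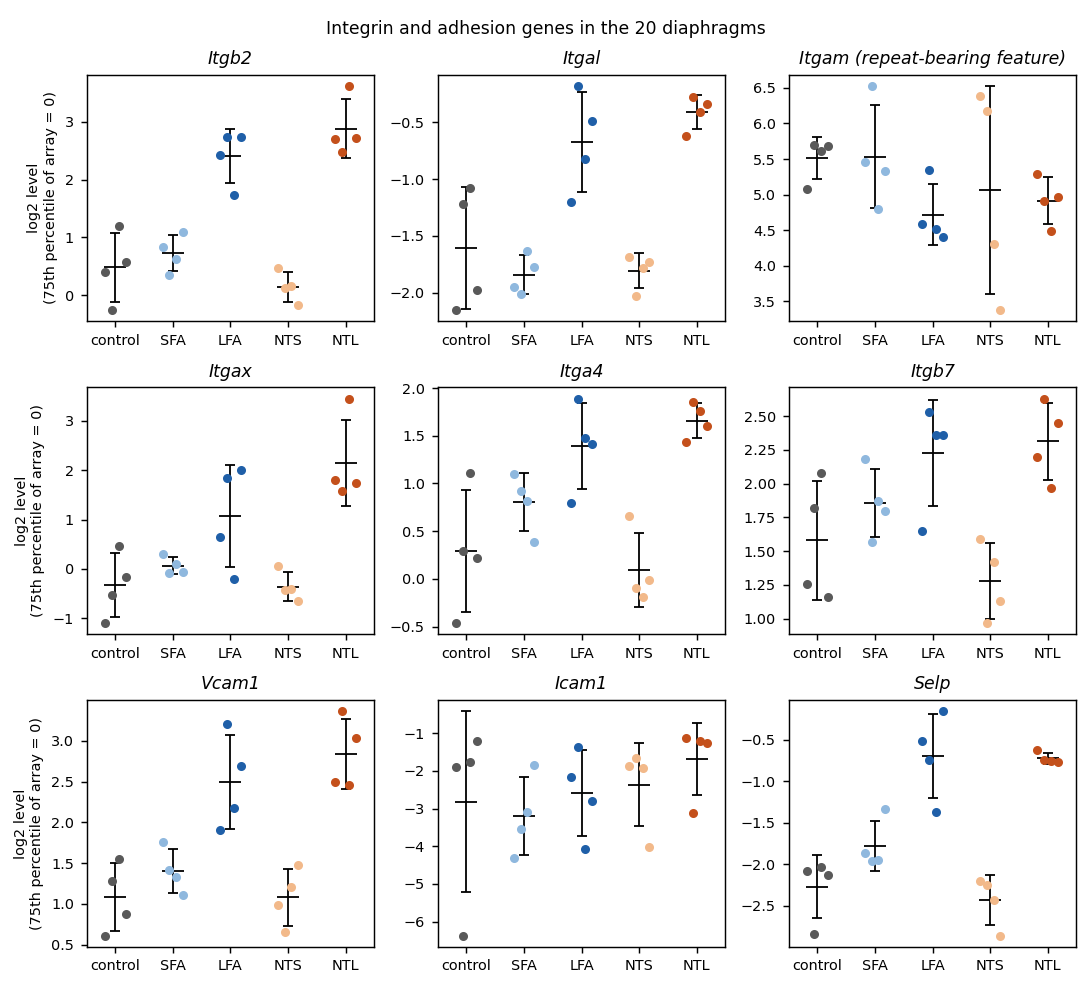
Log2 level of each gene (vertical axis, 0 being the 75th percentile of the array) in the 5 groups (horizontal axis). Points are mice, in replicate order from left to right, and bars are the mean with the SD of 4 mice. For Itgb2, Vcam1 and Selp all 4 LFA and all 4 NTL mice lie above all 4 control mice, while the Icam1 and Itgam groups overlap.

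Itgb2, the shared beta chain of the beta2 integrins, gave the smallest adjusted p among the 9 genes in NTL mice. Its log2 level was 0.40, -0.25, 1.20 and 0.58 in the control mice, 2.43, 2.73, 1.73 and 2.73 in the LFA mice, and 2.70, 2.47, 3.62 and 2.72 in the NTL mice. In the SFA mice it was 0.84, 0.35, 0.63 and 1.10, and in the NTS mice 0.47, 0.12, 0.16 and -0.17. Every long-fibre mouse lay above every control and short-fibre mouse, and the SFA and NTS values fell within the control range. Itgb2 rose 3.78-fold in LFA mice (log2 change 1.92, SE 0.33, adjusted p = 0.00381) and 5.25-fold in NTL mice (2.39, SE 0.33, adjusted p = 0.000272). Against the short fibre of the same kind it rose by 1.67 for asbestos (adjusted p = 0.0138) and by 2.73 for nanotubes (adjusted p = 6.57e-05). The asbestos value lost its call without SFA replicate 2, LFA replicate 2 or LFA replicate 4, with adjusted p up to 0.0658, and kept the same direction.

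Itgal encodes the alpha chain of LFA-1, found on most leukocytes. Its log2 level was -2.15, -1.22, -1.08 and -1.98 in the control mice, -1.20, -0.18, -0.82 and -0.49 in the LFA mice and -0.62, -0.28, -0.41 and -0.34 in the NTL mice. The SFA mice, between -2.01 and -1.63, and the NTS mice, between -2.03 and -1.69, stayed inside the control range. NTL mice lay wholly above control mice, whereas LFA replicate 1 overlapped them. The change was 1.19 in NTL mice (SE 0.26, adjusted p = 0.00978) and 0.94 in LFA mice (SE 0.26, adjusted p = 0.0502), the latter not called. LFA mice were higher than SFA mice by 1.17 (adjusted p = 0.0333), a call that was lost when any 1 SFA array, LFA replicate 2 or LFA replicate 4 was left out. A second Itgal feature, at base 3637, gave 1.35 in LFA mice (adjusted p = 0.0860) and 1.79 in NTL mice (adjusted p = 0.0203). Another, at base 4428 of a different transcript record, gave -0.97 and -0.49 with neither called, so the 3 features of Itgal disagreed in sign.

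Itgax encodes the alpha chain CD11c, carried by dendritic cells and many tissue macrophages. In log2, it stood at -1.09, -0.52, 0.46 and -0.17 in the control mice, 0.64, 1.84, -0.20 and 2.0 in the LFA mice, and 1.80, 1.58, 3.45 and 1.74 in the NTL mice. The SFA mice ranged from -0.08 to 0.30 and the NTS mice from -0.66 to 0.06. All NTL mice were above all control mice, while the LFA mice spread over both ranges (SD 1.04). Itgax rose 5.54-fold in NTL mice (log2 change 2.47, SE 0.47, adjusted p = 0.00393). In LFA mice the change was 1.40 (SE 0.47, adjusted p = 0.0910), which was not called and became so without LFA replicate 3 (adjusted p = 0.0330). Between LFA and NTL mice Itgax differed by -1.07 (95% interval -2.06 to -0.08, adjusted p = 1.0).

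Itgam encodes the alpha chain of Mac-1, present on macrophages and neutrophils, and its 3 features did not move together. The brightest, at base 4431, read 5.08, 5.69, 5.61 and 5.68 in the control mice, 4.59, 5.35, 4.52 and 4.41 in the LFA mice and 5.29, 4.91, 4.49 and 4.97 in the NTL mice. In NTS mice it read 6.39, 6.17, 4.30 and 3.38, with an SD of 1.46 that was larger than any difference between group means. Its change was -0.80 in LFA mice (SE 0.53, adjusted p = 0.363) and -0.60 in NTL mice (SE 0.53, adjusted p = 0.537).

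The feature at base 3410, which holds no such run, read -1.47, -0.47, -1.93 and -1.82 in the control mice, -0.99, 0.34, -1.59 and -0.84 in the LFA mice and 0.12, -1.11, 0.16 and 0.52 in the NTL mice. In NTS mice it read -1.42, -1.75, -2.36 and -3.06. Its change was 0.65 in LFA mice (SE 0.46, adjusted p = 0.397) and 1.35 in NTL mice (SE 0.46, adjusted p = 0.0808), neither called. Between NTL and NTS mice it was called, 4.21-fold higher (log2 change 2.07, SE 0.46, adjusted p = 0.00898), while the brightest feature gave -0.14. The feature at base 270 gave -0.62 in LFA and -0.16 in NTL mice, neither called. The direction for Itgam thus turned on the feature, and none of the 3 was called in LFA or NTL against control mice.

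A run of at least 8 CA units occurred in 34 of the 36920 features tested, or 0.0921%. Of the 20 features whose profile over the 20 arrays was nearest to that of the Itgam feature at base 4431 (smallest root mean square of the difference of centred log2 levels), 18 held such a run, whereas 0 of the 20 nearest to the Itgam feature at base 3410 did. The 3 named genes nearest to the feature at base 4431, Idua, Fgf23 and Slc17a5, were each read by a feature with such a run and changed by -0.96, -1.03 and -0.96 in LFA mice, none of them called. These counts describe the array, and their part in the Itgam reading was not tested.

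**Figure D2:**
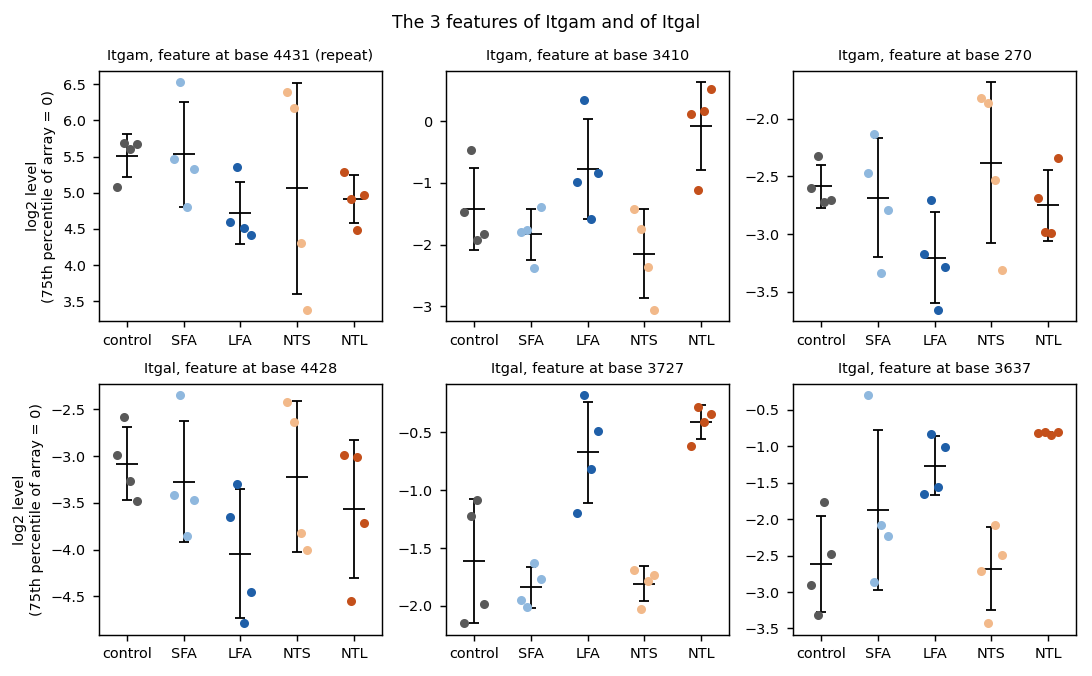
Log2 level (vertical axis, 0 being the 75th percentile of the array) of the 3 features of Itgam (top) and of Itgal (bottom) in the 5 groups, with points for mice and bars for the mean and SD of 4 mice. The Itgam feature at base 4431 has its lowest means in LFA and NTL mice (4.72 and 4.92), whereas the feature at base 3410 has its highest there (-0.77 and -0.08).

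Itga4 encodes the alpha4 chain, which binds Vcam1 and fibronectin and is carried by lymphocytes, monocytes and eosinophils. The log2 level of Itga4 was -0.46, 0.29, 1.11 and 0.22 in the control mice, 0.80, 1.89, 1.48 and 1.41 in the LFA mice and 1.43, 1.85, 1.76 and 1.60 in the NTL mice. The SFA mice read 1.10, 0.92, 0.82 and 0.39, and the NTS mice 0.66, -0.10, -0.19 and -0.01. NTL mice lay wholly above control mice, and LFA replicate 1 lay within the control range. Itga4 rose 2.58-fold in NTL mice (log2 change 1.37, SE 0.31, adjusted p = 0.0122). In LFA mice the change was 1.10 (SE 0.31, adjusted p = 0.0514), just short of a call. Against short fibres it was called for nanotubes (1.56, adjusted p = 0.00402) and not for asbestos (0.59, adjusted p = 0.450). A second feature, at base 2292, was well above background on 11 of 20 arrays and was not called anywhere.

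Itgb7, a partner of alpha4 in lymphocyte homing to gut, moved least among the integrin genes with a positive change. Its log2 level was 1.26, 1.82, 2.08 and 1.16 in the control mice, 1.65, 2.53, 2.36 and 2.36 in the LFA mice and 2.20, 2.63, 1.97 and 2.45 in the NTL mice. In the NTS mice it was 1.59, 0.97, 1.42 and 1.13. LFA and NTL mice overlapped control mice, but all 4 NTL mice were above all 4 NTS mice. The change was 0.65 in LFA (adjusted p = 0.153) and 0.73 in NTL mice (adjusted p = 0.0972), neither called. Between NTL and NTS mice it was 1.04 (SE 0.27, adjusted p = 0.0211), a call lost when NTS replicate 2, NTS replicate 4, NTL replicate 2 or NTL replicate 4 was left out.

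Vcam1, the ligand of alpha4 integrins on activated endothelium, rose with both long fibres on both of its features. The brighter, at base 3060, read 0.61, 1.28, 1.55 and 0.88 in the control mice, 1.90, 3.21, 2.17 and 2.69 in the LFA mice and 2.50, 3.36, 2.46 and 3.03 in the NTL mice. SFA mice ranged from 1.11 to 1.76 and NTS mice from 0.65 to 1.48. No long-fibre mouse overlapped a control or short-fibre mouse. Vcam1 rose 2.67-fold in LFA mice (log2 change 1.41, SE 0.31, adjusted p = 0.0178) and 3.38-fold in NTL mice (1.76, SE 0.31, adjusted p = 0.00225). The LFA call was lost without control replicate 1, LFA replicate 2 or LFA replicate 4, with adjusted p up to 0.0673. It was also lost when only the LFA and control arrays were fitted (limma adjusted p = 0.0777). The feature at base 842 gave 1.57 (adjusted p = 0.0137) in LFA and 2.35 (adjusted p = 0.000333) in NTL mice. Between LFA and SFA mice only this second feature was called (1.58, adjusted p = 0.0207), the brighter one giving 1.09 (adjusted p = 0.120).

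Icam1, the ligand of beta2 integrins, was read by 1 feature whose values scattered widely in every group. Icam1 stood at -1.90, -6.37, -1.77 and -1.21 in the control mice, -2.16, -1.36, -4.06 and -2.81 in the LFA mice and -1.13, -3.12, -1.20 and -1.27 in the NTL mice. SFA mice ranged from -4.30 to -1.84 and NTS mice from -4.01 to -1.67. Control replicate 2 was the only array on which Icam1 was not well above background. All groups overlapped, and the change was 0.21 in LFA mice (95% interval -1.75 to 2.18) and 1.13 in NTL mice (-0.83 to 3.10), neither called. Without control replicate 2 these became -0.97 and -0.05, and the LFA change was also below 0 without LFA replicate 2 (-0.20) and with normexp background correction (-0.32). Their direction was therefore not settled, and a 2-fold rise lay inside both intervals.

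Selp, encoding P-selectin of activated endothelium and platelets, was printed in 10 spots on each array, and the SD between spots of 1 array had a median of 0.0834. Its log2 level was -2.08, -2.84, -2.03 and -2.13 in the control mice, -0.52, -0.74, -1.37 and -0.16 in the LFA mice and -0.63, -0.74, -0.76 and -0.77 in the NTL mice. SFA mice read -1.87, -1.96, -1.95 and -1.33, and NTS mice -2.20, -2.25, -2.43 and -2.86. The LFA, NTL and SFA mice each lay wholly above the control mice, LFA and SFA mice overlapped, and the 4 NTL mice lay close together (SD 0.07). Selp rose 2.97-fold in LFA mice (log2 change 1.57, SE 0.27, adjusted p = 0.00385) and 2.92-fold in NTL mice (1.54, SE 0.27, adjusted p = 0.00192). The LFA call was lost when only the LFA and control arrays were fitted (limma adjusted p = 0.0544). Between NTL and NTS mice Selp rose by 1.71 (adjusted p = 0.000611), while between LFA and SFA mice the change of 1.08 was not called (adjusted p = 0.0596).

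**Figure D3:**
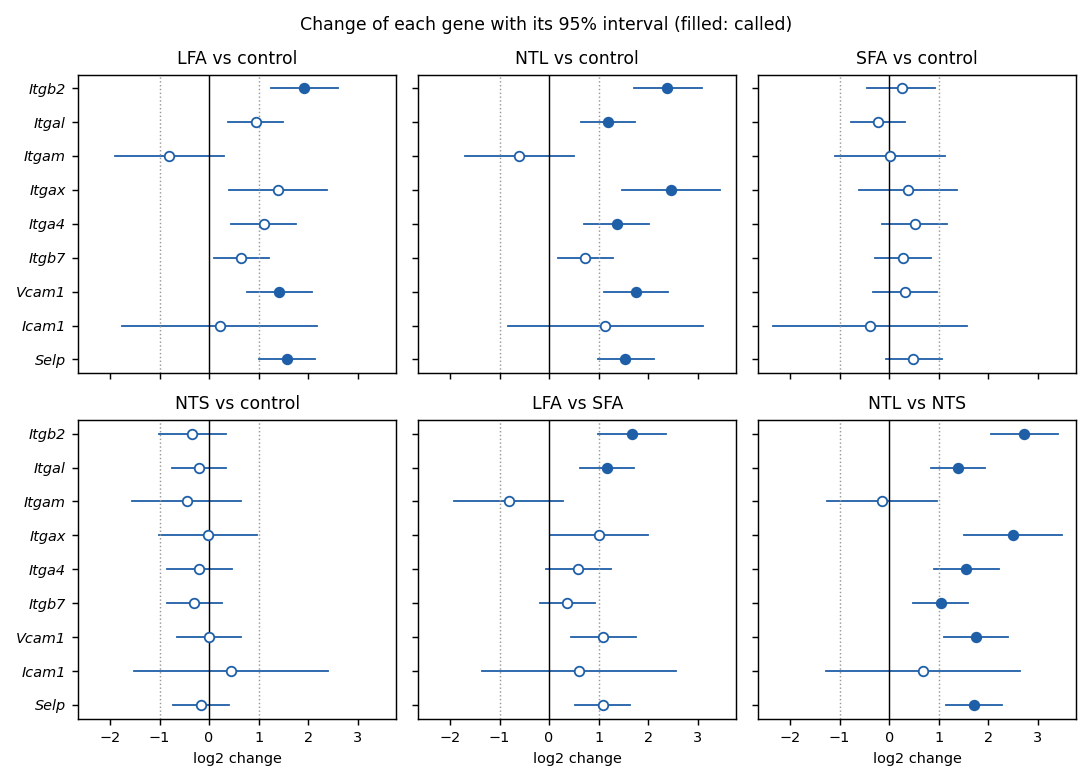
Log2 change of the 9 genes (horizontal axis) in 6 comparisons, as points with 95% intervals from the fit over all features. Filled points were called, and dotted lines mark a 2-fold change. Filled points number 3 in LFA and 6 in NTL against control mice, 2 in LFA against SFA mice and 7 in NTL against NTS mice, and there are none for short fibres against control mice.

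Compared with control mice, short fibres called 0 of 9 genes by limma, and 0% of all features tested were called in SFA or in NTS mice. None of the 9 genes had an unadjusted p under 0.05 in either. The changes ran from -0.39 (Icam1) to 0.52 (Itga4) in SFA mice and from -0.45 (Itgam) to 0.45 (Icam1) in NTS mice. The intervals for Itgb2 were -0.44 to 0.93 in SFA and -1.02 to 0.34 in NTS mice, and those for Selp -0.07 to 1.06 and -0.73 to 0.40, so that rises as large as those of Itgb2 and Selp with long fibres lay outside them. For Icam1 the intervals, -2.35 to 1.58 and -1.51 to 2.41, were too wide for such a reading.

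Fibre length was compared directly within each material. In LFA against SFA mice, 2 of 9 genes were called higher (Itgb2 and Itgal), against 1.03% of all features. In NTL against NTS mice, 7 of 9 were called higher (all but Itgam and Icam1), against 4.89% of all features. The difference between these length effects, asbestos minus nanotubes, was negative for all 9 genes, from -1.49 (Itgax) to -0.08 (Icam1). None of these was called (0% of all features), although 3 of 9 genes, Itgax, Itgb2 and Itga4, had an unadjusted p under 0.05. A different length effect in the 2 materials is therefore not shown for these genes.

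Long asbestos and long nanotubes were set side by side at their different doses. Between LFA and NTL mice 0 of 9 genes were called by limma (0% of all features), and 1, Itgax, had an unadjusted p under 0.05. The log2 difference was -0.47 for Itgb2 (95% interval -1.16 to 0.21), -0.34 for Vcam1 (-0.99 to 0.31) and 0.03 for Selp (-0.54 to 0.59). For Selp a difference beyond 2-fold lay outside the interval, and for Itgb2 a 2-fold lower level in LFA mice did not. The order of the mean levels was NTL, LFA, SFA, then control and NTS for Itgb2, Itgax, Itga4 and Itgb7, and neighbouring groups overlapped except between SFA and LFA for Itgb2. For Selp the LFA mean, -0.70, and the NTL mean, -0.73, were closer than the SD of the LFA mice.

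Groups that do not overlap gave a second view of the same arrays, free of the fit. All 4 LFA mice were above all 4 control mice for 3 of 9 genes, against 4.61% of all features, and all 4 NTL mice for 6 of 9, against 6.35%. They were the called genes in both cases. All 4 SFA mice were above all 4 control mice for 1 of 9 genes, Selp, which was not called there (0.56% of all features), and all 4 NTS mice for 0 of 9 (0.623%). LFA and control mice shared all 3 slides, and within a slide Itgb2 differed between them by 1.53 to 2.35, Vcam1 by 0.96 to 1.66 and Selp by 1.30 to 1.94. NTL and control mice shared 2 slides, on which Itgb2 differed by 1.74 and 2.62, Itgax by 1.79 and 2.60, and Selp by 1.28 and 1.83. NTL and NTS mice shared 1 slide, with 1 and 2 arrays, on which Itgb2 differed by 2.41, Vcam1 by 1.68 and Selp by 1.60. With slide as a block, calls in NTL against control mice fell from 6 to 4, Itgal being lost on its size (0.97, adjusted p = 0.0433) and Itga4 on its p (1.19, adjusted p = 0.0591). Those in NTL against NTS mice fell from 7 to 3, leaving Itgb2, Vcam1 and Selp. With the mean of a gene's features in place of the brightest, NTL against control mice also gave 4, Itgal (0.83, adjusted p = 0.0296) and Itga4 (1.20, adjusted p = 0.0941) being lost again. The NTL call of Itgal was lost too with normexp (0.92, adjusted p = 0.0101) and when only the groups compared were fitted (1.19, adjusted p = 0.0505).

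Subunits that share a dimer, and molecules that share a role, were compared within each mouse as the difference of their log2 levels, over the 8 long-fibre mice and the 4 control mice. The test was an exact two-sided permutation test, whose smallest possible p here is 0.00404, adjusted over 6 pairs. The difference Itgax minus Itgb2 changed by -0.22 (SD 0.57 over the long-fibre mice, adjusted p = 0.582). Itgal read by its brightest feature rose less than Itgb2, the difference falling by 1.09 (exact permutation p = 0.0121, adjusted p = 0.0242). In 7 of 8 long-fibre mice it lay below every control mouse. The other features of Itgal, which disagreed in sign, were not set against Itgb2 singly. Itga4, read by its brightest feature, rose more than Itgb7 by 0.55 (exact permutation p = 0.00808, adjusted p = 0.0242). In 7 of 8 long-fibre mice this difference lay above every control mouse. Without control replicate 3 both adjusted p were 0.0727, and without control replicate 2 Itgal minus Itgb2 fell by 0.72 (adjusted p = 0.0545). With the mean of a gene's features in place of the brightest, Itga4 minus Itgb7 changed by only 0.24 (exact permutation adjusted p = 0.59).

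Itgam read by its brightest feature fell behind Itgb2 by 2.85 (exact permutation p = 0.00404, adjusted p = 0.0242). Read by the feature at base 3410 the difference was -1.16 (adjusted p = 0.113), so that the size and the call turned on the repeat-bearing feature. The difference Selp minus Vcam1 changed by -0.03 (SD 0.58 over the long-fibre mice, adjusted p = 0.941). For Icam1 against Vcam1 the change was -0.91 (adjusted p = 0.582), the control mice having an SD of 2.56, and without control replicate 2 it was -2.16 (adjusted p = 0.0364).

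**Figure D4:**
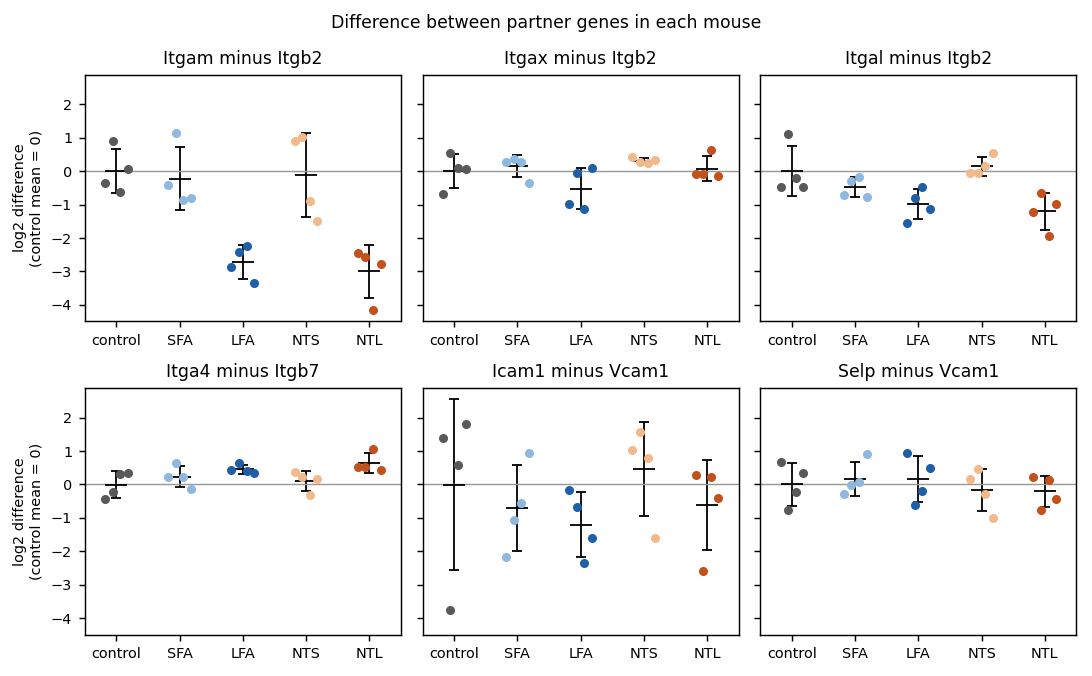
Difference of log2 levels between partner genes in each mouse (vertical axis, mean of the control mice set to 0) in the 5 groups, with points for mice and bars for the mean and SD of 4 mice. The difference Itgam minus Itgb2, with Itgam read by its repeat-bearing feature, is lowest in LFA and NTL mice (-2.72 and -2.99 on average), and Itgax minus Itgb2 averages -0.52 and 0.08 there.

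Marker lists of cell types were read beside these genes, and most calls fell in the macrophage and pan-leukocyte lists. Over all features tested, 2.22% were called higher in LFA and 3.63% in NTL against control mice. Of 11 macrophage markers, 8 were called higher in LFA and 9 in NTL mice, and the mean level of the list ran from 1.47 to 1.73 in control, 2.78 to 3.85 in LFA and 3.66 to 3.85 in NTL mice. Of 5 pan-leukocyte markers, 1 was called in LFA and 3 in NTL mice, the list running from -0.06 to 1.73 in control, 1.29 to 2.99 in LFA and 2.01 to 3.13 in NTL mice. Ptprc, the pan-leukocyte antigen CD45, changed by 1.30 in LFA (SE 0.39, adjusted p = 0.0637) and 1.91 in NTL mice (SE 0.39, adjusted p = 0.00654). Of 8 T-cell markers 0 were called in LFA and 1, Cd5, in NTL mice, and of 7 granulocyte and 4 NK-cell markers 0 in either. Of 6 markers of B and plasma cells 1 was called in both, Igj, the joining chain of secreted antibodies, at 3.02 in LFA (adjusted p = 0.00101) and 3.34 in NTL mice (adjusted p = 0.000206). That list ran from 0.57 to 1.80 in control, 1.34 to 2.39 in LFA and 1.57 to 2.86 in NTL mice. Of 4 dendritic-cell markers tested, 0 were called in LFA and 1, Flt3, in NTL mice (1.04, adjusted p = 0.0454), the list running from -1.95 to -1.43 in control, -1.85 to -0.97 in LFA and -1.41 to -1.07 in NTL mice.

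Of 8 markers of blood vessel endothelium, where Vcam1 and Selp are made, 0 were called in LFA or NTL mice. Their median change was -0.47 and -0.37, and the list ran from 2.23 to 2.75 in control, 1.92 to 2.39 in LFA and 2.15 to 2.45 in NTL mice. Of 6 markers of platelets and megakaryocytes, the other source of P-selectin, 0 were called in either, with median changes of -0.40 and -0.19, and all 6 passed the filter. Of 7 mesothelial markers 0 were called, with medians of 0.27 and -0.42. Skeletal muscle markers, the defining genes of the diaphragm, all passed the filter, and 1 of 8 was called lower in LFA and 2 of 8 in NTL mice (medians -1.02 and -1.33). The part of these shifts in the values of the 9 genes was not tested.

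**Figure D5:**
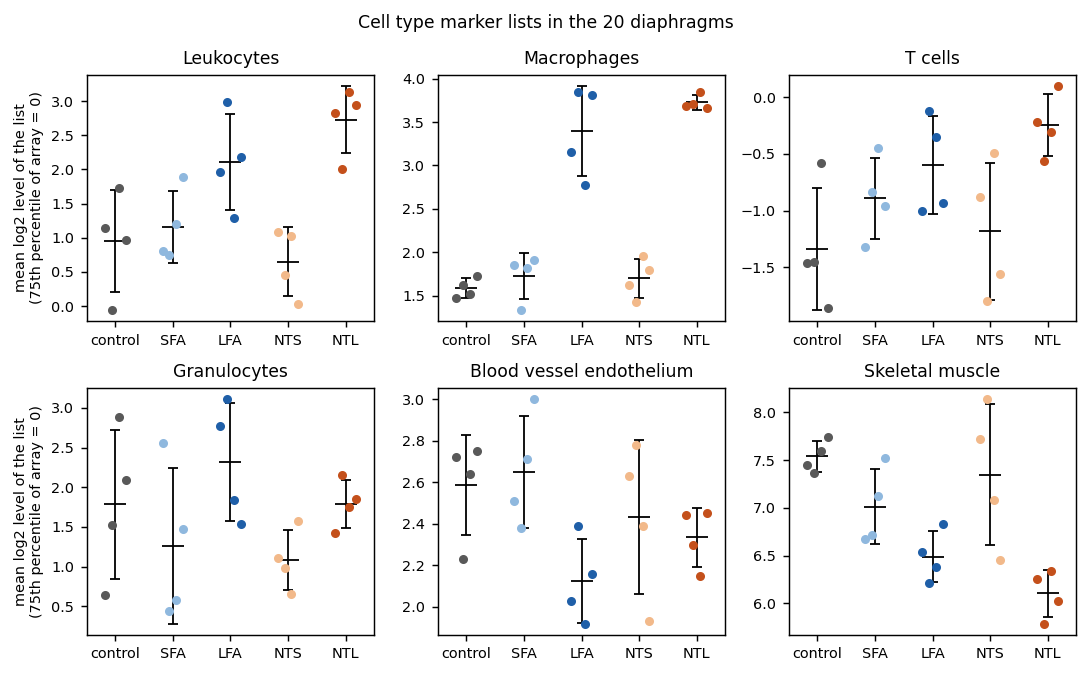
Mean log2 level of 6 marker lists (vertical axis, 0 being the 75th percentile of the array) in the 5 groups, with points for mice and bars for the mean and SD of 4 mice. The macrophage list averages 1.58 in control, 3.40 in LFA and 3.73 in NTL mice, and the endothelial list 2.58, 2.12 and 2.33.

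Further genes of adhesion were read from lists covering 65 genes, of which 63 were tested. Over all features tested, 2.22% were called higher in LFA and 3.63% in NTL against control mice. Of 19 other integrin subunits tested, 0 were called by limma in LFA or NTL against control mice, with a median change of -0.01 and 0.08. They include Itgb1, the alternative partner of alpha4, which changed by 0.34 in LFA (adjusted p = 0.523) and 0.50 in NTL mice (adjusted p = 0.347). Itgad, a further beta2 partner, was well above background on 4 of 20 arrays and gave 0.33 in LFA (adjusted p = 0.769) and -1.23 in NTL mice (adjusted p = 0.252). Of 20 other adhesion molecules tested, 2 were called higher in both, and 1, Icam4, was called lower in NTL mice. Those 2 were Selplg, the leukocyte ligand of P-selectin, at 1.31 (adjusted p = 0.0290) and 1.35 (adjusted p = 0.0146), and Cd44, a hyaluronan receptor, at 1.73 (adjusted p = 0.00665) and 1.81 (adjusted p = 0.00232). The endothelial molecules Icam2 and Cd34 gave -0.07 and 0.08 in LFA mice, while Pecam1 gave -0.87 and Cdh5 -1.19, none of them called. Sele was too dim to be tested.

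Of 15 genes that act on leukocyte integrins from inside the cell, 1 was called higher in LFA mice and 2 in NTL mice. The shares over all features were 2.22% and 3.63%. Median changes of the 15 genes were 0.57 and 0.71. Cytip, a cytohesin-binding protein of leukocytes, rose by 1.43 (adjusted p = 0.0131) and 1.70 (adjusted p = 0.00199), and Fyb was called in NTL mice alone (adjusted p = 0.0496). Fermt3, encoding the kindlin-3 that switches beta2 integrins on, changed by 1.46 in LFA mice (adjusted p = 0.163) and was called between NTL and NTS mice. Of 9 soluble or matrix ligands, 2 were called higher in both. Fn1, the fibronectin that alpha4 binds, rose by 2.34 (adjusted p = 0.0202) and 2.38 (adjusted p = 0.0100), and Spp1, osteopontin, by 2.95 (adjusted p = 0.0444) and 3.27 (adjusted p = 0.0183). Fibrinogen chains, ligands of Mac-1, had SEs of 2.85 to 3.05 for their change. Liver markers, a list that itself holds the fibrinogen chain Fgb, also varied widely. Their mean over 7 genes ranged from -1.54 to 4.28 in control and from -2.07 to 7.24 in LFA mice. In SFA mice it ran from -2.78 to 6.56, in NTS mice from -1.67 to 8.23 and in NTL mice from -0.15 to 3.96. LFA replicates 1 and 3 read 6.75 and 7.24, and LFA replicates 2 and 4 read -2.07 and -1.71. The part of this variation in the fibrinogen values, and in the levels of the 9 genes, was not tested.

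Among 15638 named genes, those with the profile nearest to each of the 9 over the 20 arrays were found by the same root mean square. The nearest to Itgb2 were Tbxas1, Ncf1 and Pik3r5, each at 0.29. The nearest to Itgax were Hk3 (0.42), Cd68 (0.43) and Pira11 (0.45), and those nearest to Itgal were Cyba, Vill and Slc16a6, each at 0.23. For Itga4 they were Was (0.23), Sash3 and Sh3bp1 (both 0.24), and for Itgb7 Tmem229b (0.16), Sytl3 (0.19) and Lyl1 (0.20). For Vcam1 they were Ccdc88b (0.23), Adamts14 (0.25) and Lrrc33 (0.26), and for Selp Alox5ap, Ptpro (both 0.31) and Irf4 (0.33). For Icam1 they were Tyk2 (0.39), Mvp and Usp22 (both 0.43), and for the Itgam feature at base 3410 Rab3il1 came first (0.45). These distances are descriptions, small where a gene varies little, and carry no test.

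The stretch of 250 bases before the transcript start was in the RefSeq promoter table (GRCm38.p6) for 6 of the 9 genes, namely Itgam, Itgax, Itga4, Itgb7, Icam1 and Selp. The stretches of Itgam and of its neighbour Itgax are shown, since both encode partners of Itgb2 and only Itgax was called in NTL mice, with that of Selp, called with both long fibres. On both strands, the letters GAGGAA, a core that the myeloid factor PU.1 can bind, and the NF-kB consensus were searched. In capitals are the matches to GAGGAA, of which Itgam had 2, beginning 84 and 15 bases before the start, the second on the opposite strand. Such letters stood in 23.3% of 32851 promoter stretches of this length, and an NF-kB consensus in 5.93%. No other match to either was found in the 6 stretches, which does not show that they lack sites for these factors. The letters tggaaattcc in the Icam1 stretch, for instance, were not counted as a match.

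Itgam, chr7:128062390-128062639, + strand: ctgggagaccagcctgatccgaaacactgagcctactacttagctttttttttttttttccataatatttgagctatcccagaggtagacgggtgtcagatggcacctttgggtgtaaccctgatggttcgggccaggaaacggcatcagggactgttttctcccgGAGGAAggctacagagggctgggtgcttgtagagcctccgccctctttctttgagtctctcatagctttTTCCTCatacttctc
Itgax, chr7:128129300-128129549, + strand: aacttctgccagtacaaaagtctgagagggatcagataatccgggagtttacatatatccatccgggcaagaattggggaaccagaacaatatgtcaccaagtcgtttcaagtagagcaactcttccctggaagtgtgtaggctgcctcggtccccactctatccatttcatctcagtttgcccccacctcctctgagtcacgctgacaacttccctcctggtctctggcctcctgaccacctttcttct
Selp, chr1:164115014-164115263, + strand: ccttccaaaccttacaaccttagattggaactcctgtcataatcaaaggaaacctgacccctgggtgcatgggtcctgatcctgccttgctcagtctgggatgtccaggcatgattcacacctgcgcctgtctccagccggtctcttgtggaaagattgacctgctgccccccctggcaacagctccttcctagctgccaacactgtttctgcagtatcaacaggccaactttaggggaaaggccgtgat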

How the data were processed

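RNA from a piece of each diaphragm was hybridised to 1-colour Agilent mouse arrays, 1 per mouse. The deposited scanner files held processed signal intensity per spot, background-corrected by the authors' scanner software (Agilent Feature Extraction 10.7.3.1). A deposited table held log2 values averaged by the authors over each group, with no value per mouse, and served as an alternative only. Its group differences lay within a median of 0.047 of those from the scanner files.

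Outlier spots and control spots were left out, log2 intensity was taken minus each array's 75th percentile, and spots of 1 feature were averaged. All 20 arrays entered 1 limma fit (limma 3.58.1, R 4.3.3), with Benjamini-Hochberg adjustment over 36920 features. The partner test used scipy 1.17.1. Scripts were tested on simulated data. The members and lists were chosen with earlier results of these data known. Named genes followed fixed rules: the 9 genes, Ptprc, up to 8 other adhesion genes called higher and up to 4 called lower in both long-fibre groups, and the 3 nearest genes to each member. Other genes named singly were chosen after their values were seen. Where nothing says that mice were processed apart, p-values measure the spread between these samples. The number of arrays limits the precision.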

Additional observations from a re-analysis of the deposited data

Results flagged for a closer look

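In 50 groups of 4 mice (the 9 genes and the Itgam feature at base 3410, in 5 groups each), 7 held a mouse that stood apart from the other 3 by Dixon's test at the 95% level, and chance alone flags about 1 in 20 groups. Icam1 gave 3 of them: control replicate 2 read -6.37 against -1.90 to -1.21 in the other control mice, NTS replicate 4 read -4.01 against -1.91 to -1.67, and NTL replicate 2 read -3.12 against -1.27 to -1.13. Selp gave 2, control replicate 2 reading -2.84 against -2.13 to -2.03 and SFA replicate 4 reading -1.33 against -1.96 to -1.87. Itgax in NTL replicate 3 read 3.45 against 1.58 to 1.80. Itgam, by its feature at base 4431, read 5.08 in control replicate 1 against 5.61 to 5.69.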

How the results depend on the processing

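Counts of genes called that moved by over 1.5 times were mostly those for LFA against SFA, where leaving out any 1 SFA array moved the count. Fitting only the groups compared gave 1 (Itgb2) in place of 3 for LFA against control and 0 in place of 2 for LFA against SFA. For LFA against SFA, normexp background and no filter each gave 1. Slide as a block gave 3 in place of 7 for NTL against NTS. Leaving out 1 array gave 2 to 5 for LFA against control (5 without control replicate 3 or LFA replicate 1) and 0 to 3 for LFA against SFA (0 without SFA replicate 2, LFA replicate 2 or LFA replicate 4). It gave 6 in every case for NTL against control, where the mean of features gave 4, and normexp and fitting only the groups compared 5 each, without Itgal. The mean of features gave 5 in place of 7 for NTL against NTS. The F test over the 5 groups called 6 genes, and the methods' test 5. Replicate numbers did not pair the mice: deviations of same-numbered mice correlated between -0.676 and 0.689, over 0.1 in 14 of 40 pairs. With the replicate block, calls stayed at 3 for LFA and 6 for NTL against control, 2 for LFA against SFA and 7 for NTL against NTS.

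Reversals concerned Itgam, Icam1 and the difference Selp minus Vcam1, none of them called. Itgam by its feature at base 3410, a choice made after seeing the data, turned to 0.65 (LFA against control), 1.35 (NTL against control), 1.06 (LFA against SFA) and 2.07 (NTL against NTS, called). The mean of its features gave 0.20 for NTL against control and 0.52 for NTL against NTS, and for the latter quantile normalization gave 0.29 and leaving out 1 array -0.70 to 0.30. Icam1 turned to -0.32 with normexp (LFA against control) and to -0.12 with the slide block (NTL against NTS), and leaving out 1 array gave -0.97 to 0.75 for LFA and -0.05 to 1.67 for NTL against control. Selp minus Vcam1 ran from -0.28 to 0.19 when 1 array was left out. The cause was not tested.

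Itgal minus Itgb2 lost its call with quantile normalization, and Itga4 minus Itgb7 with normexp and with the mean of features. Quantile normalization moved the median change over all features from -0.28 to -0.08 (LFA against control) and from -0.25 to -0.09 (NTL against control), and the share of called features that were higher from 56.4% to 75.9% and from 53.3% to 72.3%. Normexp moved that share from 64.4% to 51.2% for NTL against NTS. The authors' table has no value per mouse, so its counts and tests were not run. With 4 arrays a group, changes near 2-fold lie close to what the fit can call.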
